A study of Rattus norvegicus with 15 samples.

Results

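Solute carriers are the membrane proteins that move sugars, amino acids, ions, nucleosides, vitamins and metabolites across the plasma membrane and the membranes of organelles. The zinc transporters of the families Slc30a and Slc39a were left out here, and every other rat gene whose symbol begins with Slc and a digit was taken. The array held 279 such genes of 13832 named genes, and 128 of them, of 8378 named genes tested, passed the filter on dim probes, which asks for a signal well above background in 5 or more of the 15 tumours. These 128 carriers comprised 13 amino acid carriers (of 50 on the array), 10 sugar carriers (of 21), 24 ion carriers (of 52), 26 mitochondrial carriers of the family Slc25a (of 36) and 55 others (of 120). The others include Slc7a6os, which the naming rule takes in but which is no carrier.

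The arrays measured RNA of 15 DMBA-induced mammary tumours of tubular or papillary type from female Sprague-Dawley rats aged 180 days, 5 from each of 3 early diets. Chow held 3 mg of zinc per kg in the deficient group, 180 mg per kg in the supplemented group and 35 mg per kg in the adequate group, which the labels call the negative control. The 16 dams of each group ate it from gestation day 10 until weaning at day 21, and their daughters ate it until day 51. All daughters, the adequate group included, then received 50 mg/kg of the carcinogen DMBA by stomach tube and ate adequate chow, so the 3 groups differed in diet only before the carcinogen. The labels number the tumours 1 to 5 within each diet without naming rat or litter; a p-value here rests on the spread among the 5 tumours of a diet, which may in part be technical. One free-text label speaks of mammary gland at day 21; the tissue and age labels were followed.

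A level below is the log2 of a probe's signal minus the 75th percentile of its own array, so that 0 marks a probe as bright as the 75th percentile and 1 unit is a 2-fold step in signal. A level can be compared between tumours for 1 carrier but not between carriers, since probes differ in brightness. A difference is the mean level of 1 diet minus that of another, fitted with limma over all 21011 tested probes. Between 13854 and 24009 of 43379 spots were well above background per array, 0 were saturated, and deficient tumours 1 and 4 and adequate tumour 2 were the dimmest. The luminal epithelial markers (7 of 7 tested) had a mean level between 4.03 and 4.63 in every tumour, as the tissue label implies. With 5 arrays per diet precision is limited, and the 95% interval of a difference reached a median of 0.51 to either side, or 1.43-fold.

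Many carriers work in pairs or chains. Glucose enters through facilitative carriers such as Slc2a1 and the lactate made from it leaves through Slc16a3, while large neutral amino acids enter through a light chain such as Slc7a5 held at the surface by the heavy chain Slc3a2. In the mammary gland carriers also supply milk, with phosphate, iodide, amino acids and UDP-galactose among their cargo, and the mitochondrial family exchanges ATP, phosphate, citrate and acylcarnitines across the inner membrane. The plasma membrane exchangers of sodium, protons, bicarbonate, chloride and calcium set cell volume, pH and ion levels.

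Across all carriers the 3 diets were close. Limma called 0 of 128 carriers and 0.0% of the 21011 probes at an adjusted p under 0.05 in deficient against adequate, in supplemented against adequate, and in supplemented against deficient tumours, and the F test over the 3 diets called 0 carriers and 0.0% of probes as well. The lowest adjusted p of a carrier in limma was 0.987, 1.000 and 0.661 in these comparisons and 0.990 in the F test. At an unadjusted p under 0.05 there were 7 carriers between deficient and adequate tumours (3 higher and 4 lower; 5.47% of carriers against 3.91% of all probes, 1.87% higher and 2.05% lower), 4 between supplemented and adequate tumours (2 higher and 2 lower; 3.12% against 1.98%, 0.828% higher and 1.15% lower) and 11 between supplemented and deficient tumours (6 higher and 5 lower; 8.59% against 7.05%, 3.31% higher and 3.74% lower). Each share lay somewhat above that of all probes. Of all tested genes by their brightest probe the shares were 3.96%, 1.90% and 6.10%. Of the 71 carriers well above background on all 15 arrays 8.45%, 2.82% and 11.3% were at such a p, or 6, 2 and 8 carriers. The shares of all genes well above background on 15 arrays were 3.38%, 1.37% and 5.66%. Whether the carrier shares exceed those of other genes was not tested. The comparisons share tumours, so a carrier that stands high in 1 diet appears in 2 of them.

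Between deficient and adequate tumours 55 of 128 carriers were higher, where 49.3% of all tested probes and 44.2% of all tested genes by their brightest probe were higher, and the median difference was -0.05 for carriers and -0.03 for all genes. Between supplemented and adequate tumours 61 carriers were higher (48.8% of probes and 49.2% of genes), with a median of -0.01. Between supplemented and deficient tumours 75 carriers were higher and 53 lower (49.9% of probes and 54.4% of genes were higher and 50.1% of probes lower), with a median of 0.07 for carriers and 0.03 for all genes. Of the classes, the mitochondrial carriers had the most lopsided split in the last comparison, 21 of 26 higher with a median of 0.18, while the sugar carriers were split the other way, 2 of 10 higher with a median of -0.11. The sugar median ran from -0.27 to -0.05 when 1 tumour was left out, and leaving out deficient tumour 1, 2 or 3 or any 1 supplemented tumour moved it by over 1.5 times. Neither split is a test result.

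**Figure D1:**
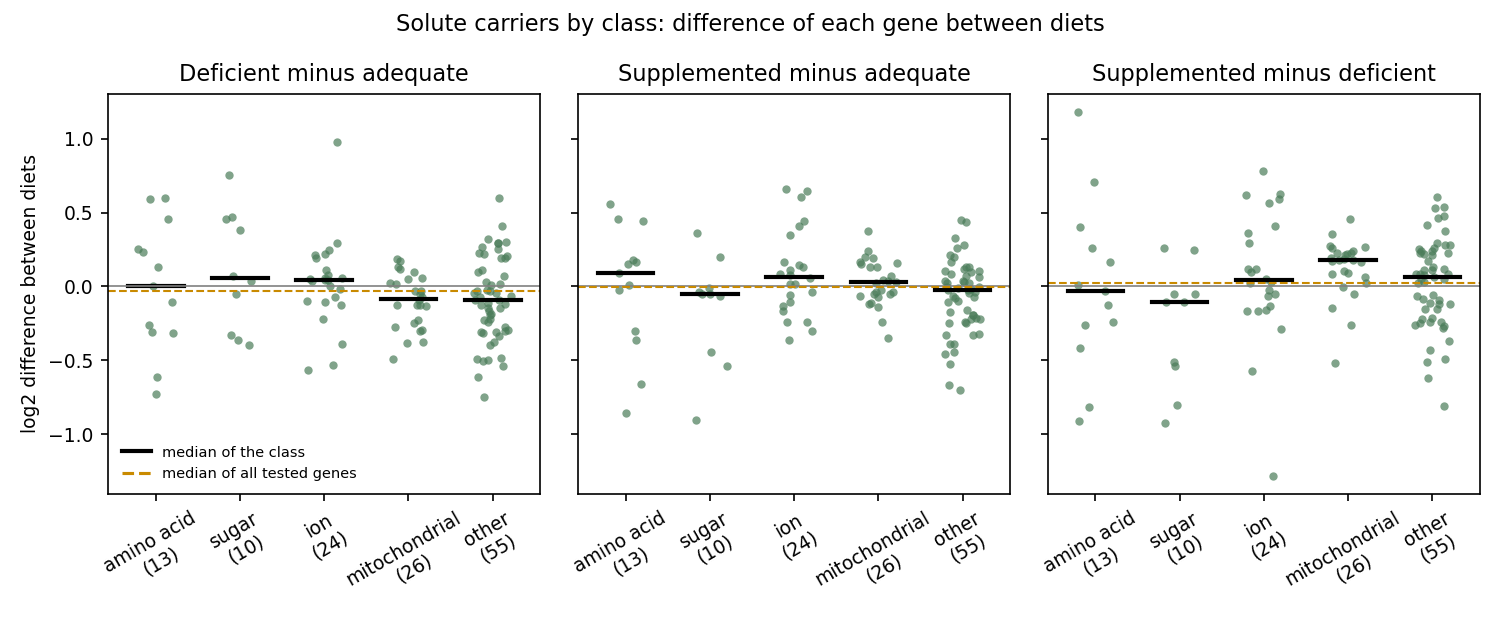
Each point is the log2 difference of 1 carrier between 2 diets, grouped by class with the number of carriers in parentheses; black lines are class medians and the dashed line is the median of all tested genes. The class medians lie between -0.11 and 0.18 and single carriers reach from -1.28 to 1.18, the mitochondrial carriers standing mostly above 0 in supplemented minus deficient.

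Among amino acid carriers, Slc38a7 had the smallest p of all 128 carriers. It encodes SNAT7, which exports glutamine and asparagine from lysosomes. Its level was 0.49, -0.26, 0.66, 0.52 and 0.16 in deficient tumours 1 to 5, -0.34, -0.51, -0.12, -0.36 and -1.18 in supplemented tumours 1 to 5, and -0.13, -0.30, 0.03, -0.09 and -0.21 in adequate tumours 1 to 5. Of the deficient tumours 4 stood above every tumour of the other diets, and deficient tumour 2 stood among the rest. Supplemented minus deficient was -0.82 with a 95% interval from -1.27 to -0.37 (unadjusted p = 0.0014, adjusted p = 0.661 in limma), and it lay between -1.34 and -0.05 within the 4 slides. Deficient minus adequate was 0.45 (interval from 0.01 to 0.90). With normexp background correction and quantile normalization these differences were -0.35 and 0.19. That setting adds 50 to each signal, which by itself shrinks the log2 differences of dim probes, here and below.

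Slc1a3, the glutamate and aspartate importer EAAT1, stood on the opposite side. Its level was -0.76, -0.60, -1.46, -1.74 and -0.28 in deficient tumours, 1.36, -0.35, 0.43, -0.95 and 0.58 in supplemented tumours, and -0.08, -0.81, -0.28, -0.42 and 0.37 in adequate tumours. The 3 highest levels were those of supplemented tumours 1, 5 and 3 and the 2 lowest those of deficient tumours 4 and 3, but supplemented tumours 2 and 4 lay within the deficient range. Between supplemented and deficient tumours it differed by 1.18 (95% interval from 0.37 to 2.00, adjusted p = 0.661 in limma), or 0.55 with normexp, and 0.64 to 2.12 within the 4 slides.

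The light chain Slc7a5, the L-type carrier LAT1 of large neutral amino acids, was dim: it was well above background in 2 deficient, 1 supplemented and 4 adequate tumours. Its mean level was -2.23 ± 0.69 in supplemented tumours and -1.37 ± 0.53 in adequate tumours (SD, n = 5 each), a difference of -0.86 (adjusted p = 1.000 in limma) that was -0.15 with normexp. Its heavy chain Slc3a2 (CD98), bright in every tumour, averaged 2.92 ± 0.58 in deficient, 2.92 ± 0.33 in supplemented and 3.22 ± 0.37 in adequate tumours (SD, n = 5 each). The heavy chain thus differed by less than its spread between tumours.

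The glutamine carriers Slc38a2 (SNAT2) and Slc1a5 (ASCT2) and the large neutral amino acid carrier Slc43a2 (LAT4) were also bright. Slc38a2 differed by -0.11, 0.15 and 0.26 in deficient minus adequate, supplemented minus adequate and supplemented minus deficient. Slc1a5 ranged from 0.34 in deficient tumour 5 to 2.28 in supplemented tumour 5, and the largest difference between its diet means was 0.41. Slc43a2 averaged 2.22 ± 0.68, 2.09 ± 0.47 and 2.08 ± 0.42 in deficient, supplemented and adequate tumours. Slc32a1, the vesicular carrier of GABA and glycine, ranged from -1.44 in supplemented tumour 4 to 0.63 in deficient tumour 1.

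The widest range of any tested carrier belonged to Slc7a3, a carrier of cationic amino acids such as arginine, picked out here after its values were seen. Its level ran from -4.60 in supplemented tumour 1 to 1.18 in supplemented tumour 4, so both ends fell within 1 diet. It was well above background on 10 of the 15 arrays, and its low end lay near the lowest signal of that array. Slc38a4, a carrier of neutral and cationic amino acids picked in the same way and well above background on 12 arrays, ran from -3.20 in deficient tumour 4 to 1.17 in adequate tumour 3. No diet difference of either carrier had an unadjusted p under 0.05 in limma (0.28 to 0.81). With ranges this wide and 5 tumours per diet, a sizeable difference could go unseen.

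The genes that cells switch on when amino acids run short, among them the regulator Atf4, asparagine synthetase Asns and Chac1, were examined beside these carriers. Of 11 tested, 8 were higher in deficient than in adequate tumours, with a median difference of 0.27, and 4 were higher in supplemented than in deficient tumours, with a median of -0.16. Atf4 differed by 0.42 and Chac1 by 0.66 between deficient and adequate tumours (unadjusted p = 0.0309 and 0.0537 in limma). In that comparison 3 of the 11 were lower, and 1 had an unadjusted p under 0.05 in limma. Of all tested genes by their brightest probe 44.2% were higher in deficient than in adequate tumours and 54.4% in supplemented than in deficient tumours. Limma called 0 of the 11.

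Of the sugar carriers, Slc2a1 (GLUT1), the main glucose importer of most dividing cells, was bright in every tumour and nearly level between diets. It averaged 3.32 ± 0.35 in deficient, 3.27 ± 0.41 in supplemented and 3.28 ± 0.29 in adequate tumours (SD, n = 5 each), and the 95% intervals of its 3 differences reached from -0.52 to 0.51. Slc37a4, which carries glucose 6-phosphate into the endoplasmic reticulum, and Slc50a1, a glucose exporter, differed by at most 0.33 in size between any 2 diets. Slc45a3 (prostein) had the smallest p of the sugar carriers. It averaged 1.78 ± 0.70 in deficient, 0.98 ± 0.47 in supplemented and 1.03 ± 0.65 in adequate tumours. Its level was 1.86, 2.30, 1.77, 0.62 and 2.36 in deficient tumours, 1.56, 0.98, 1.33, 0.53 and 0.50 in supplemented tumours, and 1.83, 0.54, 0.32, 1.54 and 0.89 in adequate tumours, so deficient tumour 4 lay inside the supplemented range and the others above it. Supplemented minus deficient was -0.80 (95% interval from -1.56 to -0.05, adjusted p = 0.703 in limma). Without the 3 dimmest arrays, deficient tumour 4 among them, it was -1.16.

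Slc2a9, a urate carrier of the glucose carrier family, reached 3.00 and 2.45 in deficient tumours 3 and 4 and at most 1.88 elsewhere. Of the other glucose carriers, Slc2a3, the insulin-responsive Slc2a4 and the sodium-coupled Slc5a1 were well above background on 3, 4 and 3 arrays and were not tested. The sodium-glucose family member Slc5a4 was well above background in 2 deficient, 0 supplemented and 3 adequate tumours. Its mean level in deficient tumours was estimated at 1.14-fold that in supplemented tumours (adjusted p = 0.778 in limma for the difference). For such an estimate, each array of the diet never well above background counts with the larger of 2 levels. These are the level of the carrier and that of the dimmest probe well above background. The mean of the other diet also takes in arrays not well above background, so the fold is no strict lower limit.

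Slc16a3 (MCT4), the lactate exporter of glycolytic cells, ranged from 2.48 in supplemented tumour 1 to 4.65 in supplemented tumour 4. Its level was 2.90, 2.66, 3.83, 4.54 and 2.96 in deficient tumours, 2.48, 4.27, 4.09, 4.65 and 4.11 in supplemented tumours and 4.05, 3.61, 3.65, 4.29 and 3.99 in adequate tumours. The 4 levels under 3 were those of deficient tumours 1, 2 and 5 and supplemented tumour 1. Across the 15 tumours Slc16a3 followed Slc2a1, with Pearson's r of 0.76 and Spearman's rho of 0.78 (permutation p = 0.00094 each, two-sided, and 0.0047 adjusted over 5 pairs of carriers). The pairs were chosen for related roles after levels had been seen. Pearson's r was 0.60 without the 2 tumours farthest from the median Slc2a1 level, 0.71 without the 3 dimmest arrays, and 0.85 with the diet means removed. The tumours were scanned on 2 days, and r was 0.48 over the 8 tumours of the first and 0.84 over the 7 of the second. The other pairs were Slc3a2 with Slc1a5 (r = -0.42) and with Slc38a2 (0.24), Slc25a4 with Slc25a5 (0.44) and Slc25a1 with Slc25a10 (0.49), with adjusted permutation p of Pearson's r from 0.153 to 0.387.

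**Figure D2:**
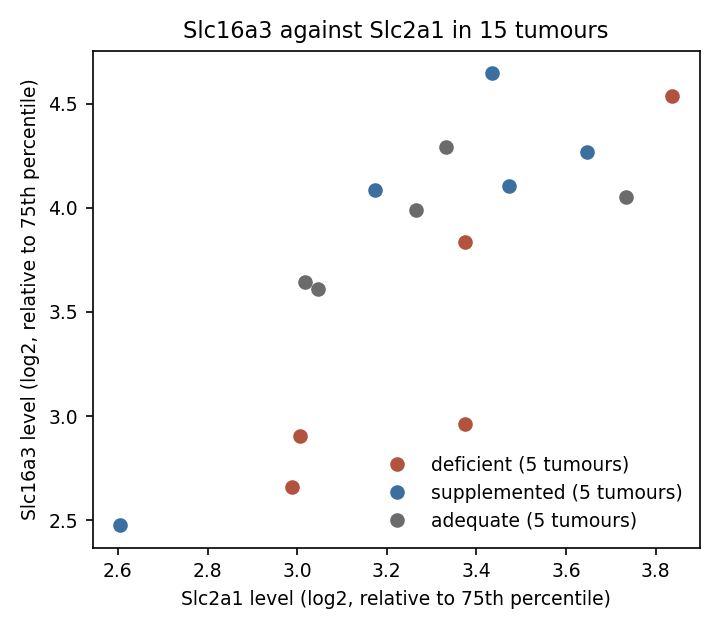
Level of the lactate exporter Slc16a3 against that of the glucose importer Slc2a1 in 15 tumours (log2 levels), coloured by early diet. Tumours of all 3 diets lie along the same rising cloud, with supplemented tumour 1 lowest on both axes at 2.61 and 2.48.

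Genes of glucose and pyruvate use were set beside this pair: glycolytic enzymes, lactate dehydrogenase, the pyruvate dehydrogenase kinase Pdk1 and the mitochondrial pyruvate carriers Mpc1 and Mpc2. Between supplemented and deficient tumours 13 of 15 tested genes were higher with a median of 0.22, among them Pgk1 at 0.63 and Pkm at 0.52. Between deficient and adequate tumours 2 of 15 were higher, Mpc1 at 0.31 and Mpc2 at 0.12, with a median of -0.24, the lowest being Tpi1 at -0.57. Of all tested genes by their brightest probe 54.4% and 44.2% were higher in these 2 comparisons. Limma called 0 of 15 in each comparison.

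Promoter sequence is shown for the pair that varied together, and for Slc38a7, Slc1a3 and Slc4a4 because zinc was the dietary variable. Each window holds the 250 bases before the gene's start, from RefSeq on build GRCr8, 5′ to 3′ on the gene's strand. Capitals mark the hypoxia response core, ACGTG or GCGTG on either strand, in the first 2, and the metal response core, TGCACNC or TGCGCNC on either strand, in the other 3.
Slc2a1, chr5:138002272-138002521, plus strand: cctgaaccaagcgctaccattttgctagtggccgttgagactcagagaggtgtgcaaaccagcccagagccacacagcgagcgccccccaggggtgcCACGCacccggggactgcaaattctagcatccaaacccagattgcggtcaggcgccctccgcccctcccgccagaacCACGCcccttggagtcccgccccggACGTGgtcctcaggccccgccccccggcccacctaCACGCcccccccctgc
Slc16a3, chr10:106712078-106712327, plus strand: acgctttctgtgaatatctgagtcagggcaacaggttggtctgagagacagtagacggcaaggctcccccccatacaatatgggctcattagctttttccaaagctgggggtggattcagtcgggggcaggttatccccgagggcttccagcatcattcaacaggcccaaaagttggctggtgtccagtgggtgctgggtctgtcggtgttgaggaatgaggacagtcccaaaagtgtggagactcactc
Slc38a7, chr19:9215128-9215377, plus strand: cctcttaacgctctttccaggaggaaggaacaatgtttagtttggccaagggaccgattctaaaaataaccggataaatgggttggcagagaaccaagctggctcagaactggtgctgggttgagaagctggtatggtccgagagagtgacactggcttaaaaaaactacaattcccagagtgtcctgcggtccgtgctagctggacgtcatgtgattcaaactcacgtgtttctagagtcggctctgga
Slc1a3, chr2:59557788-59558037, minus strand: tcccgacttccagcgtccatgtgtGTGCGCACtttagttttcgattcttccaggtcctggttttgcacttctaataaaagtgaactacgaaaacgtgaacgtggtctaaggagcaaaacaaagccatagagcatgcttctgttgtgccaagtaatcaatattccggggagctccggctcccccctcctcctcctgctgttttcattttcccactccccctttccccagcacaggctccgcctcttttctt
Slc4a4, chr14:19468283-19468532, minus strand: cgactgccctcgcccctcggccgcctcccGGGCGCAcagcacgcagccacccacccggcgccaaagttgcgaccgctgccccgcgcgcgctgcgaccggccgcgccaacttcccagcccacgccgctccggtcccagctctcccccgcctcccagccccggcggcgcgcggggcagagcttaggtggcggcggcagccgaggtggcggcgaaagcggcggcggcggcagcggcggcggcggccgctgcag
Slc2a1 held 4 hypoxia cores and Slc16a3 held 0. Slc1a3 held 2 overlapping metal response cores, one on each strand, as did the windows of its other 2 listed starts. Slc4a4 held 1 metal response core and Slc38a7 held 0. Over the 108 tested carriers with a window, 56.5% held a hypoxia core, against 57.1% of 6885 tested genes with a window, and 31.5% held a metal response core, against 31.8%. Among all 27457 genes of the table the shares were 39.6% and 22.5%. By class, a metal response core stood in 40.0% of 10 amino acid, 50.0% of 10 sugar, 41.2% of 17 ion, 43.5% of 23 mitochondrial and 16.7% of 48 other carriers with a window, and a hypoxia core in 50.0% to 70.6%. These shares are descriptions of letters, and a match is no evidence of binding.

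Among ion carriers, the bicarbonate carriers Slc4a4 and Slc4a8 were lower in supplemented than in deficient tumours by unadjusted p. Slc4a4 encodes NBCe1, which moves sodium and bicarbonate together. Its level was -0.62, -0.74, 1.67, -0.14 and -1.09 in deficient tumours, -1.20, -0.71, -1.35, -1.39 and -2.69 in supplemented tumours and -1.05, -1.09, -1.45, -0.74 and -1.48 in adequate tumours. Deficient tumour 3 stood far above the rest, deficient tumours 4 and 1 also lay above every tumour of the other diets, and deficient tumours 2 and 5 overlapped them. The supplemented tumours differed from the deficient ones by -1.28 (95% interval from -2.22 to -0.34, adjusted p = 0.665 in limma) and deficient minus adequate 0.98 (0.04 to 1.92, adjusted p = 0.987). Without deficient tumour 3 these were -0.82 and 0.52, and with normexp -0.39 and 0.34.

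Slc4a8, the sodium-driven chloride and bicarbonate exchanger, had levels of -0.69, -0.41, -1.03, -0.26 and -0.51 in deficient tumours, -1.18, -1.65, -1.03, -0.93 and -0.998 in supplemented tumours and -1.04, -1.03, -0.42, -0.46 and -1.02 in adequate tumours. All deficient tumours except the third were above all supplemented ones. Supplemented minus deficient was -0.57 (adjusted p = 0.665 in limma), or -0.19 with normexp. The other tested members of the family, Slc4a2, Slc4a3, Slc4a7 and Slc4a11, differed by 0.62, -0.17, 0.36 and 0.57 in that comparison, so the family did not share a direction.

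Slc24a3, which exchanges sodium for calcium and potassium, was the 1 carrier whose supplemented and adequate tumours did not overlap, which held for 0.357% of all probes. Its level was -0.10, -0.00062, 0.55, 0.64 and 0.15 in supplemented tumours, -0.25, -0.79, -0.87, 0.34 and -0.14 in deficient tumours, and -0.13, -0.76, -0.20, -0.17 and -0.73 in adequate tumours. The gap was narrow, with supplemented tumour 1 just above adequate tumour 1. Supplemented minus adequate was 0.64 (95% interval from 0.13 to 1.16, adjusted p = 1.000 in limma) and supplemented minus deficient was 0.59, or 0.34 and 0.27 with normexp.

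Slc12a2 (NKCC1), which brings sodium, potassium and chloride into secretory cells, had 3 of its 4 highest levels in supplemented tumours. Its level was 1.98, 1.91, 1.23, 1.60 and 1.46 in deficient tumours, 1.77, 2.70, 2.71, 1.86 and 3.06 in supplemented tumours and 2.11, 1.06, 1.89, 1.11 and 2.64 in adequate tumours. All supplemented tumours lay above deficient tumours 3, 4 and 5, while deficient tumours 1 and 2 and adequate tumours 1, 3 and 5 lay inside the supplemented range. Its difference between supplemented and deficient tumours was 0.78 and supplemented minus adequate 0.66, and the difference of 0.78 lay between -0.20 and 1.59 within the 4 slides. The potassium-chloride exporters Slc12a4 and Slc12a7 differed by 0.29 and -0.16 between supplemented and deficient tumours.

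Slc40a1 (ferroportin), the only known iron exporter of mammals, averaged -1.22 ± 0.45 in deficient, -0.60 ± 0.40 in supplemented and -1.20 ± 0.60 in adequate tumours (SD, n = 5 each). It was well above background in 4, 5 and 3 tumours of these diets. Supplemented minus deficient was 0.62 (95% interval from -0.0027 to 1.24, adjusted p = 0.7102 in limma). The iron importer Slc11a2 (DMT1) and the copper importer Slc31a1 (CTR1) differed by at most 0.08 in size in any comparison. For deficient minus adequate the 95% interval of Slc31a1 ran from -0.60 to 0.46 and that of Slc11a2 from -0.33 to 0.44, so both were measured to within those bounds only.

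Among the brightest ion carrier probes were those of Slc8b1 (NCLX), which exchanges sodium for calcium in mitochondria, and Slc12a7 (KCC4). Slc20a1 (PiT1), a phosphate importer, ranged from 1.09 to 1.85. The sulfate carrier Slc26a2 ranged from -2.68 in deficient tumour 4 to -0.44 in deficient tumour 1.

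Of 17 tested ion pumps, channels and regulators that work with these carriers, 12 were higher in supplemented than in deficient tumours, with a median of 0.17. They included the endoplasmic reticulum calcium pump Atp2a2 at 0.47, the Golgi pump Atp2c1 at 0.55 and the kinase Wnk1, which controls the Slc12a family, at 0.46. The other 5 of the 17 were lower, and of all tested genes by their brightest probe 54.4% were higher. Between deficient and adequate tumours 5 of 17 were higher, with a median of -0.18, and the kinase Stk39, which phosphorylates Slc12a2, differed by 0.47. Limma called 0 of 17.

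**Figure D3:**
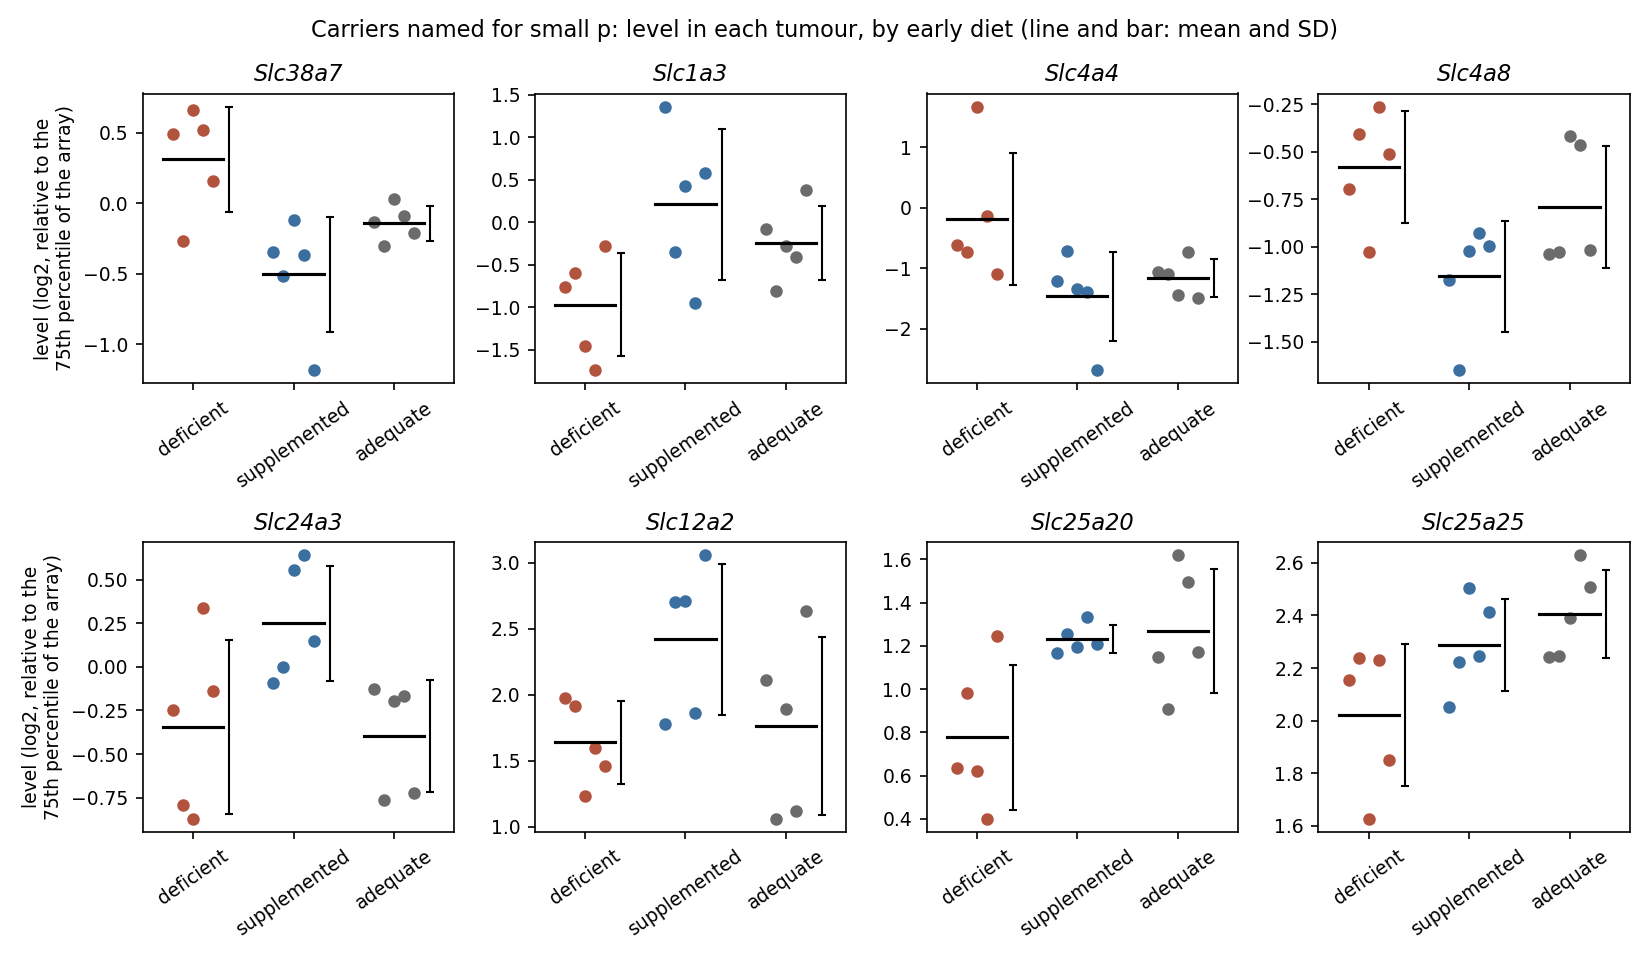
Level of 8 carriers with small p in each of 15 tumours (points), by early diet, as log2 levels; horizontal lines are means and bars SD (n = 5 per diet). Supplemented and adequate tumours do not overlap for Slc24a3, deficient and adequate tumours do not overlap for Slc25a25, and deficient tumour 3 stands at 1.67 for Slc4a4.

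Of the mitochondrial carriers 18 of 26 were well above background on all 15 arrays. The phosphate carrier Slc25a3 and the ADP/ATP carriers Slc25a4 and Slc25a5, which feed and empty ATP synthase, were bright in every tumour. Slc25a3 averaged 5.83 ± 0.29 in deficient, 6.001 ± 0.05 in supplemented and 5.96 ± 0.28 in adequate tumours (SD, n = 5 each). Slc25a4 and Slc25a5 differed by -0.0028 and 0.19 between supplemented and deficient tumours, both within their spread.

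Slc25a20, the carrier that takes acylcarnitines into mitochondria for fat oxidation, had the smallest p of any carrier between deficient and adequate tumours. Its level was 0.64, 0.98, 0.62, 0.40 and 1.25 in deficient tumours, 1.17, 1.26, 1.19, 1.33 and 1.21 in supplemented tumours and 1.15, 0.91, 1.62, 1.49 and 1.17 in adequate tumours. The first 4 deficient tumours lay below all supplemented ones and deficient tumour 5 lay among them. Deficient minus adequate was -0.49 (95% interval from -0.88 to -0.11, adjusted p = 0.987 in limma) and supplemented minus deficient 0.45 (0.07 to 0.84, adjusted p = 0.701). Within the 4 slides deficient minus adequate lay between -1.11 and 0.07. Without the 3 dimmest arrays supplemented minus deficient was 0.28.

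Slc25a25, which exchanges ATP-magnesium for phosphate, was the 1 carrier whose deficient and adequate tumours did not overlap, which held for 0.39% of all probes. Its level was 2.16, 2.24, 1.63, 2.23 and 1.85 in deficient tumours, 2.05, 2.22, 2.50, 2.24 and 2.41 in supplemented tumours, and 2.24, 2.25, 2.39, 2.63 and 2.51 in adequate tumours. Deficient tumour 2 and adequate tumour 1 lay nearly level, so the separation was thin. Deficient minus adequate was -0.38 (95% interval from -0.73 to -0.04, adjusted p = 0.987 in limma), with -0.72 to -0.01 within the 4 slides. The mitochondrial NAD carrier Slc25a51 differed by -0.38 as well, or -0.13 without the 3 dimmest arrays.

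By tumour, the mean of the 26 mitochondrial carriers, each centred on its own mean, was -0.26, -0.12, -0.04, 0.0038 and 0.06 in deficient tumours, 0.11, -0.09, 0.06, 0.07 and 0.10 in supplemented tumours and -0.06, -0.03, 0.06, 0.09 and 0.07 in adequate tumours. Deficient tumour 1, one of the 3 dimmest arrays, stood lowest, deficient tumour 2 also lay below every tumour of the other diets, and deficient tumours 3, 4 and 5 overlapped both diets. Over all 8378 tested genes deficient tumours 1 and 2 were likewise the lowest, by less, at -0.066 and -0.036. Without deficient tumour 1 the median difference of the class was 0.09 between supplemented and deficient tumours (0.18 with it) and 0.02 between deficient and adequate tumours (-0.08 with it). Over the alternatives the class median of supplemented minus deficient ran from 0.09 to 0.22. The citrate carrier Slc25a1 differed by -0.23 and 0.09 in deficient minus adequate and supplemented minus deficient, within its spread.

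Genes of mitochondrial membrane transport whose symbols do not begin with Slc were counted beside the carriers. They were set apart by symbol only, so members such as Ucp2, Ucp3, Mtch1 and Mtch2 need not be unrelated to the Slc25a family. Of 14 tested, 11 were higher in supplemented than in deficient tumours with a median of 0.11, and 2 were higher in deficient than in adequate tumours with a median of -0.11. The import receptor Tomm20 differed by 0.45 between supplemented and deficient tumours, and the uncoupling protein homologue Ucp3 by 1.19 (adjusted p = 0.661 in limma). Of all tested genes by their brightest probe 54.4% were higher in supplemented than in deficient tumours and 44.2% in deficient than in adequate tumours. Limma called 0 of 14.

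**Figure D4:**
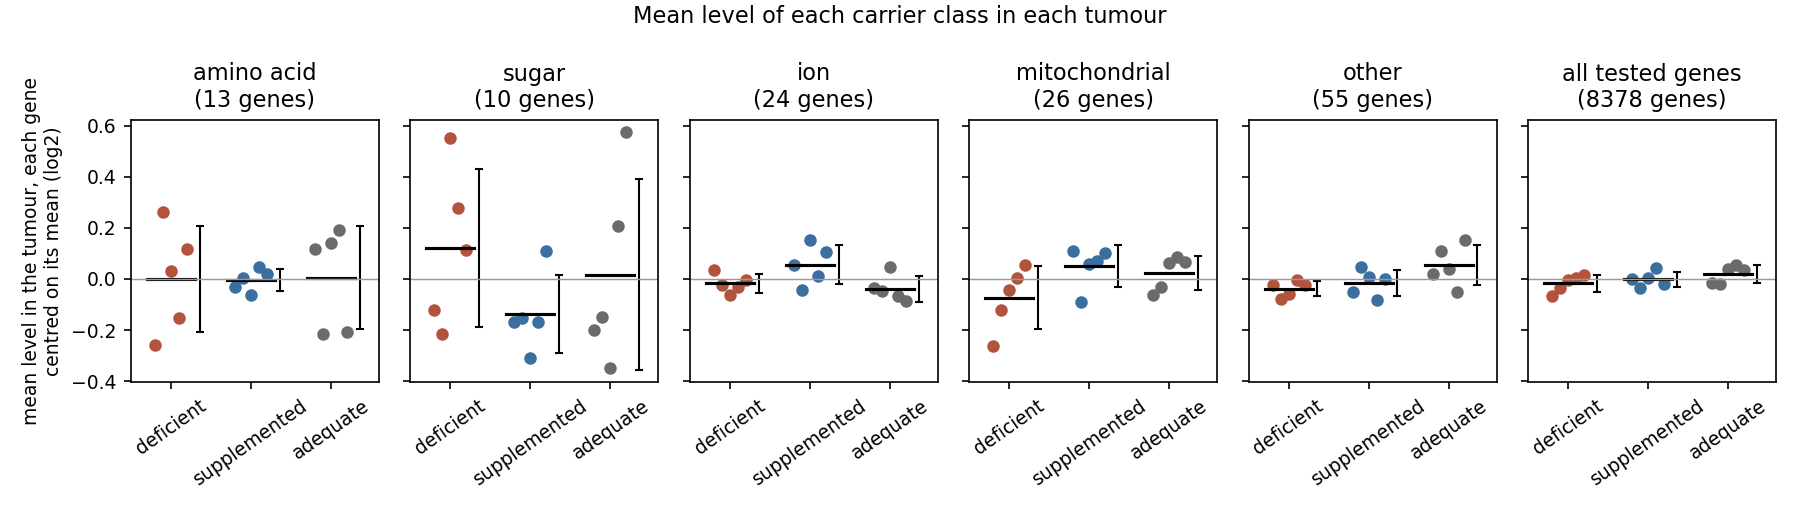
Mean level of each carrier class in each of 15 tumours (points), after each gene is centred on its mean over the tumours, in log2; horizontal lines are means and bars SD (n = 5 per diet), and the last panel shows all 8378 tested genes. The mitochondrial panel has its lowest point at -0.26 in deficient tumour 1, and the sugar panel has the widest spread, from -0.35 to 0.58 within adequate tumours.

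Among the other carriers, Slc14a1, the urea carrier UT-B that is abundant in red cells and other tissues, followed diet by unadjusted p. Its level was 0.47, -0.60, 0.56, -0.22 and -0.06 in deficient tumours, -0.40, -0.84, -0.55, -0.21 and -1.92 in supplemented tumours and -0.58, -0.33, -0.49, -0.78 and -0.67 in adequate tumours. Deficient tumours 1, 3 and 5 stood above all tumours of the other diets. For supplemented minus deficient the difference was -0.81 (95% interval from -1.43 to -0.19, adjusted p = 0.674 in limma), or -0.53 without supplemented tumour 5 and -0.26 with normexp. Erythrocyte markers differed in the same direction: all 5 tested of 8 listed (Hbb, Hbb-b1, Hbe2, Alas2 and Ahsp) were lower in supplemented than in deficient tumours, and their mean level ran from 0.31 to 2.19 in deficient, from -1.44 to -0.60 in supplemented and from -1.52 to 0.75 in adequate tumours. The red cell anion exchanger Slc4a1 (band 3) was not well above background on any array. The part of red cell RNA in the Slc14a1 result was not tested, and in bulk tumour RNA fewer cells of a type and less RNA per cell cannot be told apart.

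Fatty acid carriers were lower in deficient than in adequate tumours for 4 of 4 members, with a median of -0.40. Of all probes 50.7% were lower, and of all 8378 tested genes by their brightest probe 4677 were lower. In supplemented minus adequate 3 of the 4 carriers were lower, with a median of -0.42. In supplemented minus deficient 2 of the 4 were lower, with a median of 0.08. Slc27a3, an acyl-CoA synthetase of this family, had levels of -0.29, 0.30, -1.31, 0.21 and -0.14 in deficient tumours and -0.07, 0.96, 0.51, 0.63 and 0.47 in adequate tumours. Deficient tumour 3 was the lowest of all, and deficient tumours 2 and 4 lay inside the adequate range. Deficient minus adequate was -0.75 (95% interval from -1.41 to -0.08, adjusted p = 0.987 in limma), or -0.48 without deficient tumour 3. Slc27a1 (FATP1) and Slc27a4 differed by -0.04 and -0.19.

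The transmitter carrier Slc6a11, a GABA importer, was well above background in 2 deficient, 0 supplemented and 4 adequate tumours. By the estimate used for Slc5a4 it was 1.27-fold higher in adequate than in supplemented tumours (adjusted p = 1.000 in limma for the difference). Supplemented minus adequate was -0.70, but -0.07 with normexp and quantile normalization, a smaller step than that estimate. The supplemented mean was -2.54 ± 0.23 and the adequate mean -1.84 ± 0.51 (SD, n = 5 each). Slc18a2 (VMAT2), which loads amines into the granules of mast cells and neurons, ranged from -1.75 in deficient tumour 1 to 0.87 in adequate tumour 1.

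Slc44a4, a choline-like carrier, had levels of 3.26, 3.71, 3.75, 3.08 and 3.402 in supplemented tumours and 3.08, 2.97, 2.88, 2.99 and 3.20 in deficient tumours, which overlapped only through supplemented tumour 4. Supplemented minus deficient was 0.42 (95% interval from 0.02 to 0.81, adjusted p = 0.703 in limma). Slc35f6 was the 1 carrier whose supplemented and deficient tumours did not overlap, which held for 1.5% of all probes. It lay between 0.97 and 1.16 in supplemented and between 0.79 and 0.95 in deficient tumours, a difference of 0.17 with an unadjusted p of 0.20. The peptide carrier Slc15a4 differed by 0.33, the nucleoside carrier Slc29a1 (ENT1) by -0.39 and Slc22a18 by -0.39 between supplemented and adequate tumours, with unadjusted p from 0.0579 to 0.0838.

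Nucleotide sugar carriers, which load the Golgi and endoplasmic reticulum for glycosylation, had 5 of 13 members higher in deficient than in adequate tumours and 8 of 13 higher in supplemented than in deficient tumours. Slc35b4 had a brightest probe that differed by -0.50 between deficient and adequate tumours, and -0.32 without deficient tumour 3, but its other tested probe differed in sign and the mean of both was -0.15. Slc35f5 likewise differed by 0.41, or 0.22 without deficient tumour 1 and 0.08 over both probes. Slc35b2 and Slc35b1, which supply sulfate donor and ATP to these organelles, and the UDP-galactose carrier Slc35a2, needed for milk lactose, differed by at most 0.29 in size. Slc22a17, a receptor of lipocalin 2, was the brightest probe of the other carriers and lay between 4.30 and 5.34.

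Wide ranges among the carriers bright on all arrays were also seen for Slc22a15 and Slc28a2. Slc22a15 ranged from 0.94 in supplemented tumour 4 to 3.74 in supplemented tumour 2. The nucleoside importer Slc28a2 ranged from -0.82 in supplemented tumour 4 to 1.14 in deficient tumour 3. The taurine importer Slc6a6 averaged -1.69 ± 0.54, -2.05 ± 0.43 and -2.01 ± 0.69 in deficient, supplemented and adequate tumours.

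Of the 151 carriers that were not tested, 108 were well above background on 0 arrays and 43 on 1 to 4, the deciding count being 5. Just inside stood Slc5a4 and Slc7a3l1 with 5 arrays each, reaching -0.74 and -0.14 at their highest. Just outside stood Slc17a9, Slc23a1, Slc23a3, Slc2a4 and Slc36a4 with 4 arrays each, reaching -1.24, -1.18, -1.75, -1.87 and -2.43. Named for known roles but not tested were also the cystine importer Slc7a11, the glutamine importer Slc38a1, the iodide importer Slc5a5, the kidney phosphate carrier Slc34a1, the macrophage metal carrier Slc11a1 and the mitochondrial iron carrier Slc25a37. Slc16a1 and Slc9a3r1 had no probe that matched by accession.

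Several untested carriers were bright in 1 to 3 tumours, and these were picked out after their values were seen. Slc26a4 (pendrin), an exchanger of chloride, iodide and bicarbonate, reached 2.69 in deficient tumour 3, 0.73 in supplemented tumour 2 and -0.25 in adequate tumour 5, and lay at -3.10 or below, not well above background, in the other 12. Slc6a14, a broad amino acid importer, reached 0.32 in supplemented tumour 2. Slc34a2, the phosphate carrier of lactating mammary epithelium, reached -0.15 in deficient tumour 3. The glucose carrier family member Slc2a8 reached 0.04 and -0.60 in deficient tumours 1 and 5.

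Slc7a10 (Asc-1), a carrier of small neutral amino acids known as a surface marker of white fat cells, reached 0.49 in deficient tumour 1 and -0.54 in supplemented tumour 5, and lay at -2.24 or below elsewhere. The same 2 tumours had the highest mean level of adipocyte markers, 2.98 and 2.01. Over the 4 tested markers of 8 listed (Adipoq, Lpl, Retn and Cfd) that mean ran from -1.12 to 2.98 in deficient, from -0.95 to 2.01 in supplemented and from -0.83 to -0.03 in adequate tumours; Fabp4, Lep and Cidec were not tested. The part of fat tissue in the Slc7a10 levels was not tested.

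**Figure D5:**
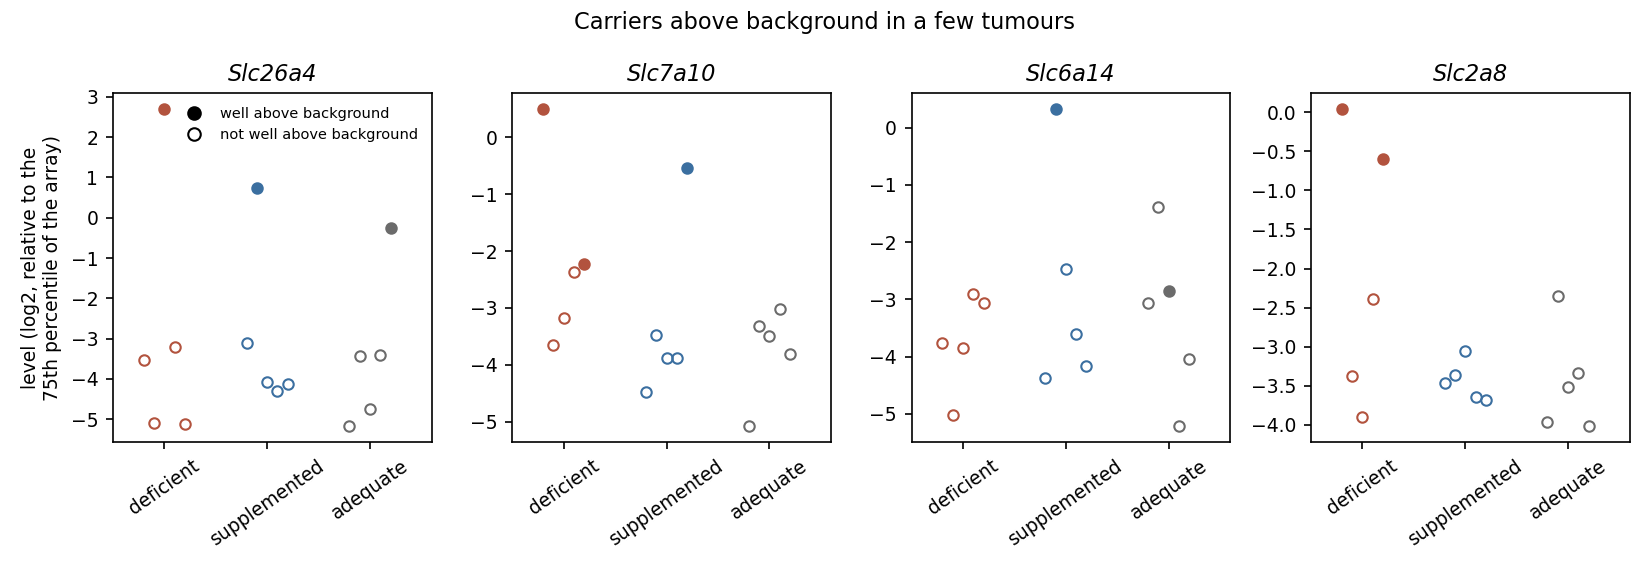
Level of 4 carriers that were well above background (filled points) in 2 or 3 of 15 tumours, by early diet, as log2 levels; open points were not well above background. Slc26a4 stands at 2.69 in deficient tumour 3, and Slc7a10 at 0.49 in deficient tumour 1 and -0.54 in supplemented tumour 5.

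Deficient tumour 3, which was high for Slc4a4, Slc2a9, Slc26a4 and Slc34a2, was the highest of the 15 tumours for 24 of the 128 carriers and the lowest for 17, together 32.0%. Over all tested genes it was the highest or lowest for 29.3%. Of the 71 carriers bright on all arrays it was at an end for 35.2%. Its array was not among the 3 dimmest.

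A second probe was tested for 33 carriers. For 21 of them the brightest probe and another tested probe correlated with a Pearson's r under 0.5 across tumours, and the differences had opposite signs for 16, 16 and 11 carriers in deficient minus adequate, supplemented minus adequate and supplemented minus deficient. Both probes of Slc12a2 correlated at 0.91 and had the same sign in all 3 comparisons. Slc38a7, Slc1a3, Slc4a4, Slc4a8, Slc24a3, Slc25a20, Slc25a25 and Slc14a1 were measured by 1 tested probe each.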

How the data were processed

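RNA of 15 mammary tumours was measured on 15 single-colour (Cy3) arrays. The authors deposited each array's scanner output, in which a probe's intensity is linear and local background is already taken off. Per the file headers the program was Agilent's Feature Extraction in version 11.5.1.1, while the submitters' processing notes name 15.5. A table the authors deposited holds log2 values of 30002 probes, with array medians of 7.09 to 7.10. Its columns correlated with the log2 median spot signal at 0.984 to 1.000 across probes, so its scale was taken as log2 with no centring by gene; how it was normalized is unknown. It was used for comparison only.

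A level is the log2 of the processed signal less the log2 of its array's 75th percentile (50.7 to 177 in linear signal). Spots marked as outliers were set to missing, spots of a probe were averaged, and a probe counted as well above background where more than 0.5 of its spots were. Tested were the probes that were so in 5 or more tumours: 21011 probes, with 40 missing values, 0 of them in carriers. Of 41012 probes 17502 matched 1 gene through their accession in a RefSeq table of assembly GRCr8, and 0 matched several. The array was designed on another build, so no coordinates are given except those of the RefSeq promoter windows on GRCr8. A carrier is shown by its brightest tested probe.

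The 3 diets were fitted in 1 model with limma 3.58.1 (R 4.3.3; two-sided, 12 residual degrees of freedom, threshold 0.05 after Benjamini-Hochberg adjustment over all tested probes), and the step was tested on simulated data. The members, lists and comparisons were chosen with earlier results of these data known. Carriers were named by a rule: in each comparison the 5 higher and the 5 lower with the smallest p, the 3 brightest of each class, the 8 with the widest range among those bright on 15 arrays, and 39 genes of known roles in mammary gland, tumours or other cell types; some of these are not reported here. The 4 slides each held all 3 diets. Alternatives were normexp with an offset of 50 on median signal and median background (the files hold no mean signal) with quantile normalization, the deposited values, median scaling, the filter on dim probes, slide, scan day and replicate number as blocks, array weights, the mean of a gene's probes, and leaving out the 3 dimmest arrays or 1 tumour. Same-numbered tumours did not deviate together (correlations from -0.280 to 0.224), so no pairing by number was used in the main fit. Such correlations cannot show whether the numbers stand for a shared litter. The numbers also partly followed the slides, since tumours numbered 1 were on slide 1 and those numbered 5 on slide 4.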

Additional observations from a re-analysis of the deposited data

Results flagged for a closer look

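For each named carrier the highest and the lowest tumour of each diet were set against the others by Dixon's test. Of 156 groups of 5 tumours, from 52 carriers, 8 held a tumour that stood apart, about as many as chance gives at 1 in 20. Deficient tumour 3 accounted for 4 of them. It had the highest Slc28a2 level of its diet, 1.14 against 0.08 for the next, and the highest Slc6a6 level, -0.73 against -1.86. It had the lowest Slc31a1 level, -1.44 against -0.65, and the lowest Slc35b4 level, -0.96 against -0.16. Deficient tumour 1 had the highest Slc35f5 level, 0.42 against -0.41. Supplemented tumour 1 had the lowest Slc16a3 level, 2.48 against 4.09. Adequate tumour 5 had the lowest Slc43a2 level, 1.35 against 2.11, and adequate tumour 1 the highest Slc8b1 level, 3.804 against 3.07.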

How the results depend on the processing

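Under 26 alternatives limma called 0 carriers in every comparison and in the F test, and the lowest adjusted p of a carrier was 0.838 for deficient minus adequate, 0.989 for supplemented minus adequate, 0.391 for supplemented minus deficient and 0.879 for the F test. With the replicate number as a block 0 carriers were called too (lowest adjusted p = 0.988, 1.000 and 0.633 in the 3 comparisons), and the median differences stayed at -0.05, -0.01 and 0.07. The 30 named differences gave 771 alternative values, of which 0 changed sign and 0 passed the threshold. These 30 were picked for the smallest p in the same data, so a kept sign was likely in advance and is no support for them. Sizes moved more: 20 of 30 were smaller by over 1.5 times with normexp and quantile normalization and 19 with the deposited values. The normexp offset of 50 is large beside the 75th percentile of an array (50.7 to 177), so it shrinks differences of dim probes by construction. Slc7a5, well above background in 1 supplemented tumour, was at -0.15 with normexp against -0.86. Leaving out 1 tumour, deficient tumour 3 made 4 of the 30 smaller by over 1.5 times, and deficient tumour 1 and supplemented tumours 2 and 5 made 1 each. Without the filter on dim probes, which brings in all 279 carriers, the median difference was 0.085 between deficient and adequate tumours and -0.14 between supplemented and deficient tumours, while the medians of all probes were 0.11 and -0.14; many of these probes were at background. Leaving out 1 tumour, the carrier medians ran from -0.08 to -0.02, from -0.02 to 0.02 and from 0.05 to 0.10. Of 390 alternative values of the class medians 10 moved by more than the spread between tumours. That spread is a wide measure for medians near 0, and by sign some were less steady. The amino acid median kept its sign in 18 of 26 alternatives for deficient minus adequate and in 19 for supplemented minus deficient. The mitochondrial and sugar medians of supplemented minus deficient kept theirs in 26 of 26. Dim probes limit what these arrays can show, since 57 of the 128 carriers were not well above background on every array.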
